A study of Mus musculus with 12 samples.

Results

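The H3K27ac regions called only after C59 treatment are stretches of the genome where the acetylated histone was listed as a peak in both C59-treated forelimb bud libraries and in neither DMSO control library. All peaks of the 4 H3K27ac libraries on chromosomes 1 to 19 and X were merged where they overlapped by 1 bp or more, which gave 34034 regions, and 732 of them held a peak of both C59 replicates and of no DMSO replicate. That was 2.15% of all merged regions. The opposite set, with a peak of both DMSO replicates and of neither C59 replicate, held 1030 regions, or 3.03%. The 732 regions were chosen by the presence and absence of H3K27ac peak calls, so every value on their H3K27ac calls and folds is a description and carries no test.

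The samples were forelimb buds of wild-type (WT Swiss Albino) mouse embryos whose mothers were injected at E10.5 with C59 or with its solvent DMSO, and the buds were dissected 6 h later. Chromatin immunoprecipitation with sequencing (ChIP-seq) was done with an antibody to histone H3 acetylated at lysine 27 (Abcam ab4729) and with an antibody to β-catenin (a polyclonal of Invitrogen), with 2 replicates for each antibody and treatment. Each replicate pooled forelimb buds of several embryos, so a library averages mesenchyme, ectoderm, vessels and blood, and fewer cells carrying a mark cannot be told apart from less of the mark per cell. With 2 libraries against 2, an exact two-sided permutation test cannot give a p under 0.05.

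C59 is a small molecule inhibitor of Porcupine, the enzyme that attaches a lipid to WNT proteins and without which they are not secreted. In cells that receive WNT, β-catenin escapes degradation, enters the nucleus and binds TCF/LEF factors on DNA, where it activates target genes. In the limb bud this pathway acts in the ectoderm and distal mesenchyme, supports outgrowth and holds back cartilage differentiation. H3K27ac marks active promoters and enhancers, the cis-regulatory modules (CRMs) that switch genes on, and a region can lie under the peak-calling limit in one library and over it in another while its acetylation differs little.

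Windows of 200 bp show the kind of sequence involved. They are read from GRCm38 (RefSeq, the assembly of mm10) on the plus strand and printed in lower case, with each TCF/LEF core (ATCAAAG or TTCAAAG, on either strand) in capitals. The first is centred on the H3K27ac summit of the C59-only region with the highest fold, upstream of Veph1. The next 3 are centred on H3K27ac summits of regions that hold both a β-catenin summit of the DMSO embryos and a TCF/LEF core, nearest to Ube2v1, Flrt2 and Fam110b. The last pair is centred on β-catenin summits, just outside the C59-only region nearest to Setd4 and inside the one nearest to Msx1, and these windows hold no core, so all their letters are in lower case.
Veph1, chr3:66410941-66411140: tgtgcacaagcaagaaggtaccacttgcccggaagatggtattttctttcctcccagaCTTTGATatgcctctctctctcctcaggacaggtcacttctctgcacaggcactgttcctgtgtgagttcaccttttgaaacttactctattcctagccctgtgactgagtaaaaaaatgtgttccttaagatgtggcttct
Ube2v1, chr2:167583400-167583599: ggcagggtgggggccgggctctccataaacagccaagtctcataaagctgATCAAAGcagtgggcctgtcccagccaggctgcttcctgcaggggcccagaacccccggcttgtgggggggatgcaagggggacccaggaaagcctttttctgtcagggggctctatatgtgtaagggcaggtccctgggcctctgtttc
Flrt2, chr12:95467118-95467317: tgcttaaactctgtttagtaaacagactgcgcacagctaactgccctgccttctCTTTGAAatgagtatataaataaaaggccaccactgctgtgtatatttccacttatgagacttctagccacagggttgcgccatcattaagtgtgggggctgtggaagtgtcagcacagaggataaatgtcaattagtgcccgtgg
Fam110b, chr4:5590476-5590675: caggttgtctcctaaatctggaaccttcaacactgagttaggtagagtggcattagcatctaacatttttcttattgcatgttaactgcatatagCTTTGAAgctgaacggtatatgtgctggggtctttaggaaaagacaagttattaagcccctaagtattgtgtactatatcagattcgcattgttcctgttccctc
Setd4, β-catenin summit, chr16:93272290-93272489: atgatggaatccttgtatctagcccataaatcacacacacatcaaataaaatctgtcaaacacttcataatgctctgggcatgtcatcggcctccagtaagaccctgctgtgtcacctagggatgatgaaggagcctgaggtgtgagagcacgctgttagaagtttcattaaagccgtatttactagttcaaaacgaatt
Msx1, β-catenin summit, chr5:37817255-37817454: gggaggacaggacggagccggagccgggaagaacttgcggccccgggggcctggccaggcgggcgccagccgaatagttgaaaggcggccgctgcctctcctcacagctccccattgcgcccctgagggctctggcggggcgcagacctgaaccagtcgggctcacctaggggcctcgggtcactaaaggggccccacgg

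Both C59 libraries of H3K27ac were somewhat deeper than both DMSO libraries, so depth ran with treatment. The lowest background that macs2 used corresponds to 5.03 and 5.39 Gb of sequenced fragments for the DMSO replicates and to 5.93 and 5.56 Gb for the C59 replicates, and 33120 to 37869 summits were listed for each H3K27ac library. Start sites of the 10 genes fixed as markers of limb mesenchyme, among them Prrx1, Tbx5, Twist1 and Hand2, held H3K27ac in all 4 libraries. Among the hindlimb genes 1 of 5 did, among the neural genes 0 of 15, and for muscle, blood, endothelium and ectoderm the numbers were 7 of 22, 4 of 20, 5 of 20 and 4 of 20. Endothelial start sites were called 6 times in each DMSO replicate and 8 and 7 times in the C59 replicates. The ranges over the 4 libraries were 7 to 8 start sites for muscle, 5 to 7 for blood and 6 to 8 for ectoderm, and the part of these tissues in the results was not tested.

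The number of C59-only regions has to be read beside the other ways in which 2 of the 4 libraries can share a region. C59 replicate 1 and DMSO replicate 2 alone shared 856 regions, more than the 732 that the C59 replicates shared. The other mixed pairs shared 602, 379 and 225 regions. Lists of 1 library alone were longer still, with 2930 regions for C59 replicate 1, 1502 for C59 replicate 2, 2081 for DMSO replicate 1 and 3155 for DMSO replicate 2. The plot of regions by library set gives all these numbers. A further 17468 regions, or 51.3%, were called in all 4 libraries.

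**Figure D1:**
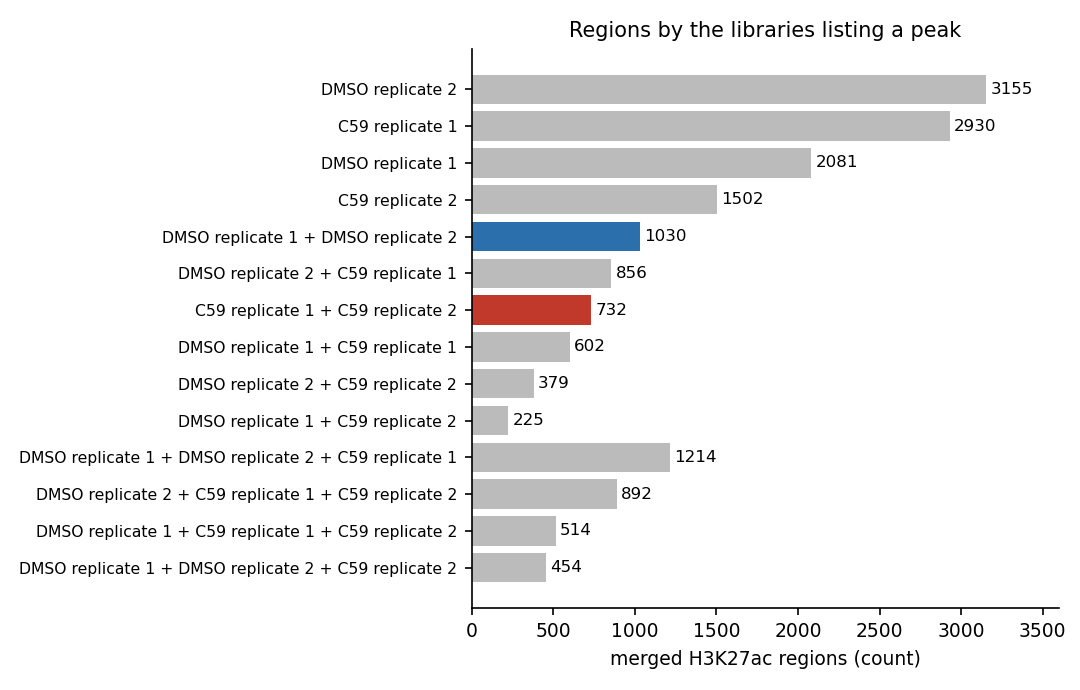
Number of merged H3K27ac regions (horizontal axis, count) for each set of 1 to 3 libraries that listed a peak in them (rows). The C59-only set (red, 732) is smaller than the DMSO-only set (blue, 1030) and than the set shared by DMSO replicate 2 and C59 replicate 1 (856); the 17468 regions called in all 4 libraries are not drawn.

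C59-only regions were weak and narrow, and so were DMSO-only regions. The peak fold, which is the number of fragments over the summit relative to the number macs2 expected there from the surroundings, had a median of 3.55 in C59 replicate 1 (1.84 to 6.42) and of 3.51 in C59 replicate 2 (1.92 to 6.79). Regions called in all 4 libraries had medians of 7.82 and 7.35 in the same lists. DMSO-only regions had medians of 3.63 in DMSO replicate 1 and 3.575 in DMSO replicate 2, much like the members. Behind the median member stood 17 fragments in replicate 1 (95% Poisson interval 9.90 to 27.2) and 16 in replicate 2 (9.15 to 25.98), an interval that covers counting error only. The median width was 372 bp (190 to 1126 bp) against 842 bp for regions called in all 4 libraries. For DMSO-only regions it was 372 bp as well. The summits of both C59 replicates lay a median of 64 bp apart.

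The replicates ranked the members only loosely. Over the 732 regions the folds of both C59 replicates had a Pearson correlation of 0.459, given as a description since the regions share libraries and a narrow range, and over the regions called in all 4 libraries it was 0.967. The higher of both folds exceeded the lower by a median factor of 1.14, and by over 1.5 times in 44 regions. Taking the lower of both folds, 233 regions (31.8%) stayed under 3, 408 (55.7%) lay from 3 to 4, 81 (11.1%) from 4 to 5, and 10 reached 5. At the calling limit, the weakest member had a -log10 q of 1.30, and in 162 members at least 1 replicate was under 2. Just outside the rule, 1406 regions had a peak of both C59 replicates and of 1 DMSO replicate, and in these the median lower C59 fold was 3.38 against 3.25 in the members.

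**Figure D2:**
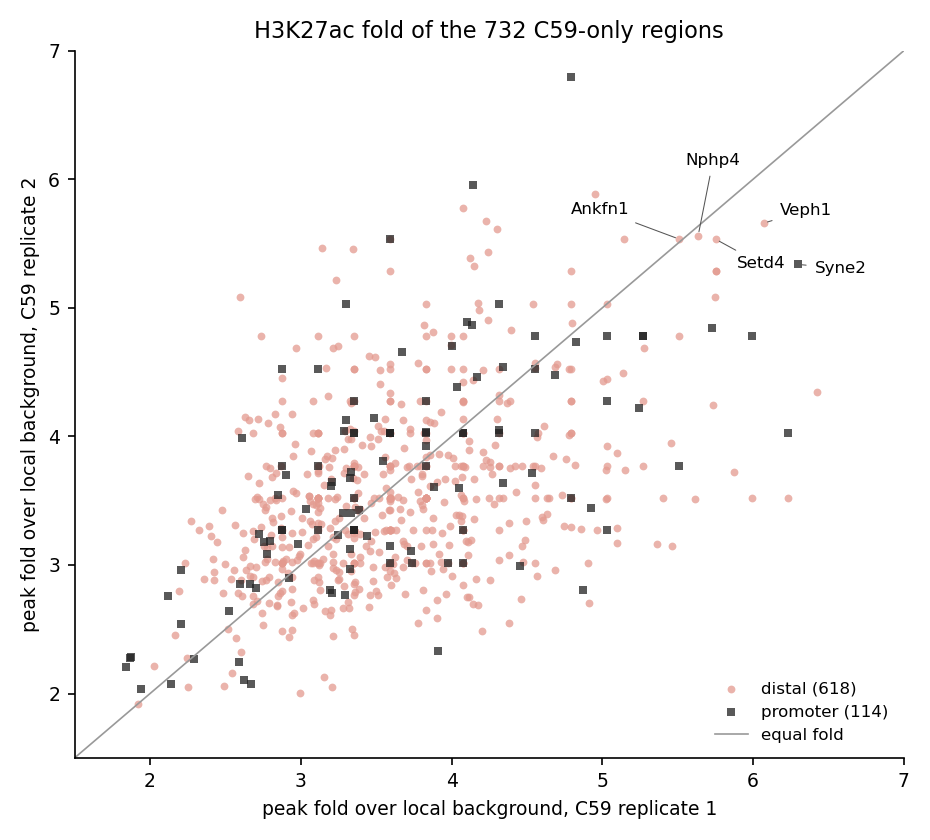
H3K27ac peak fold of each C59-only region in C59 replicate 1 (horizontal) and C59 replicate 2 (vertical), both as fold over local background on linear axes. Circles are 618 distal and squares 114 promoter regions; the grey line marks equal folds and the names are the nearest genes of the 5 regions with the highest lower fold, which lie between 5.34 and 5.66 on that measure.

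A missing call in the DMSO lists did not have to mean missing acetylation, so the depth of those lists was checked against each member. When the coverage at the C59 summits was scaled to the depth of the DMSO libraries, 658 of 732 members (89.9%) reached the lowest coverage that both DMSO libraries listed, and 576 (78.7%) reached the weakest p that they listed. The members had passed the C59 calling limit, with a lowest listed coverage of 11 against 10 in the DMSO lists, so the rule itself fixes most of these shares and they do not show how much signal the DMSO libraries held. Only 60 members (8.20%) reached 2 times that lowest coverage. In the consensus lists, for which the study removed duplicates and sampled replicates to equal size, 707 members (96.6%) overlapped a C59 consensus peak and 12 overlapped a DMSO consensus peak. These lists come from the same libraries as the rule, so the overlap is a description and no independent support. In none of these 12 did the DMSO summit lie inside the member. A C59 and no DMSO consensus peak overlapped 695 of the 732 members.

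Part of the set lay close to an H3K27ac peak listed in either DMSO replicate. The nearest DMSO peak was a median of 8.95 kb away, 193 members (26.4%) had one within 1 kb of their edge, and 75 had none within 100 kb. The median lower fold was 3.04 in the 193 members with a DMSO neighbour and 3.27 in the 539 without. Among DMSO-only regions 19.5% had a C59 peak within 1 kb.

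The 10 members with the highest lower fold lay at all distances from protein-coding start sites, from 0.129 kb at Syne2 to 311 kb at Setd4. Promoters made up 26 of the 81 members with a lower fold from 4 to 5 (32.1%), 12.5% of those from 3 to 4 and 1 of the 10 that reached 5. The highest lower fold was found 114 kb upstream of Veph1, at chr3:66410881-66411334 and intergenic, with folds of 6.07 and 5.66. Its window holds the TCF/LEF core shown above, the nearest DMSO H3K27ac peak was 0.394 kb away, and the nearest β-catenin summit of the DMSO embryos was 4.10 kb away. Next came an intergenic region at chr4:152630004-152630352, 127 kb downstream of the start of Nphp4, which encodes a protein of the primary cilium, with folds of 5.64 and 5.56, and the nearest DMSO peak was 152 kb away.

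The intergenic region at chr16:93272426-93272893, whose nearest protein-coding start was that of Setd4 at 311 kb, had folds of 5.75 and 5.53. Of the 10 strongest members only this had a β-catenin summit of the DMSO embryos within 1 kb. That summit had a fold of 23.2 and lay 258 bp from the H3K27ac summit. Among members with a lower fold from 4 to 5, 30 of 81 (37.0%) had such a summit within 1 kb. Together with an intergenic region nearest to Clic5, the Setd4 region was overlapped by β-catenin peaks in both C59 replicates.

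Other regions among the strongest 10 were mostly intronic. They lay in Ankfn1 (5.51 and 5.53), in Grik1, which encodes a kainate receptor subunit (5.15 and 5.53), in Rbfox1, which encodes a splicing factor (5.75 and 5.09), and in Bcor, which encodes a BCL6 corepressor (5.75 and 5.28). An intergenic region lay 71.3 kb upstream of Tox3, which encodes an HMG-box protein, with folds of 5.03 and 5.03. In Grik1 and Rbfox1 the nearest DMSO H3K27ac peak was 194 and 188 kb away, and the distance to other C59 peaks was not measured. Only Syne2, described next, was a promoter among the 10.

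Promoter regions were a minority. In 114 of 732 members (15.6%, 13.1 to 18.4) the H3K27ac summit was less than 1 kb from an annotated start site, and 94 of these start sites belonged to protein-coding genes. Introns held 291 members (39.8%), intergenic sequence 305 (41.7%) and exons away from start sites 22 (3.01%). Regions called in all 4 libraries were at promoters in 68.9%. DMSO-only regions were at promoters in 24.2%, which differed from the C59-only share by -8.60 points (95% Newcombe interval -12.25 to -4.83, C59 only minus DMSO only). That difference depended on the libraries: it was -14.8 points without C59 replicate 1 and -11.6 points without C59 replicate 2, but -1.28 points (-3.66 to 1.24) without DMSO replicate 1 and 1.27 points (-1.08 to 3.70) without DMSO replicate 2. In each of these the set that lost a library needed 1 peak and the other needed 2, so the sets are less alike than the full ones.

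**Figure D3:**
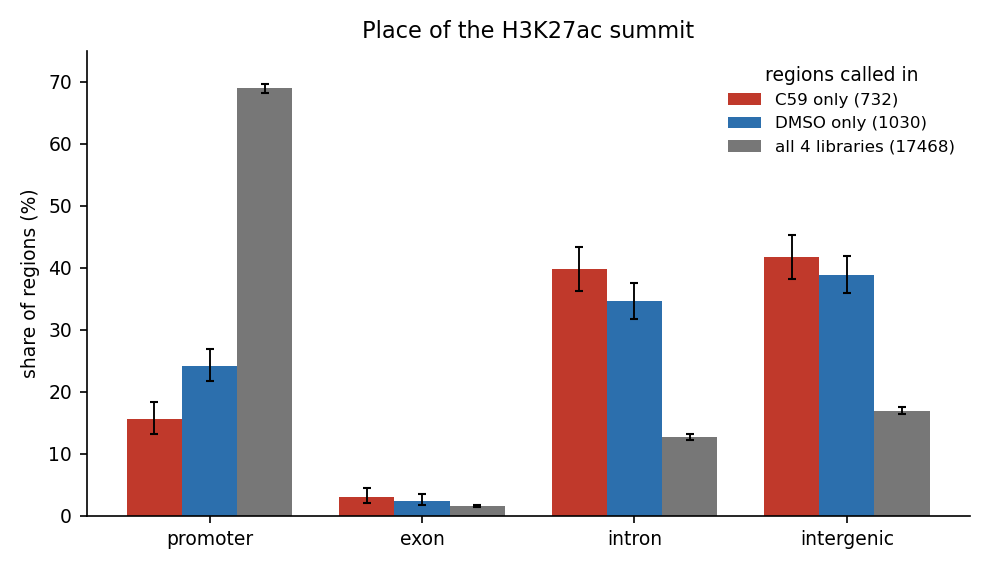
Share of H3K27ac regions (vertical axis, percent) by the place of the highest summit (horizontal axis) for C59-only, DMSO-only and all-4-library regions, with 95% Wilson intervals as error bars. C59-only regions were at promoters in 15.6%, in introns in 39.8% and intergenic in 41.7%, while regions called in all 4 libraries were at promoters in 68.9%.

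The promoter of Syne2, which encodes a nuclear envelope protein, had the highest lower fold among promoters, with 6.30 and 5.34 at 129 bp from the start site. It was followed by Lgmn, which encodes the protease legumain (5.72 and 4.84), and by Gon4l, which encodes a nuclear regulator (4.79 and 6.79, the latter the highest promoter fold in a single replicate). Zkscan16, a zinc finger gene (5.99 and 4.78), and Tnip2, which encodes a binding partner of the NF-κB inhibitor A20 (5.03 and 4.78), came next, and 4 promoters in all were tied at their lower fold. β-catenin summits of the DMSO embryos were far from all 5 promoters, the nearest 9.77 kb away at Syne2 and the farthest 856 kb away at Tnip2. At Lgmn a DMSO H3K27ac peak lay only 0.225 kb from the member.

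The 732 regions had 649 different nearest protein-coding genes, and 578 of these genes were nearest to 1 region, 61 to 2 regions and 10 to 3 or 4. Prdm16, which encodes a transcriptional regulator known from brown fat, and Sox6, a partner of Sox5 and Sox9 in cartilage differentiation, were nearest to 4 regions each. The others with 3 regions were Aff3, Bcor, Dlg2, Habp2, Hnrnpa3, Meis1, Pmp22 and Ptn. Some of these regions lay side by side, so the counts are not all of separate sites. Such pairs lay 209.5 and 208.9 kb from a Dlg2 start and 187.6 and 186.6 kb from that of Habp2. Others lay 119.3 and 120.7 kb from a Pmp22 start and 86.99 and 88.18 kb from that of Ptn. No DMSO-only region was nearest to Prdm16, Aff3, Dlg2, Habp2 or Meis1, while Sox6, Pmp22 and Ptn had 1 DMSO-only region each and Bcor and Hnrnpa3 had 2. Prdm16, Aff3, Dlg2, Habp2 and Meis1 were nearest to 23, 21, 7, 10 and 22 merged regions. Sox6, Bcor, Hnrnpa3, Pmp22 and Ptn were nearest to 32, 25, 25, 9 and 19. Of all merged regions 2.15% were C59-only, and these genes were picked for their high counts, so the counts are a description. Of all merged regions 3.03% were DMSO-only, so a count of 0 is near that share for each gene without a DMSO-only region. All 10 also had regions called in all 4 libraries, between 1 (Dlg2, Pmp22) and 13 (Bcor).

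The 4 regions at Prdm16 were inside the gene. The one with the highest lower fold (4.34 and 4.54) lay 36.4 kb downstream of a Prdm16 start. It was 777 bp from the start of the annotated gene Gm13134, through which it counts as a promoter. A DMSO H3K27ac peak lay 0.253 kb from it, and from the other Prdm16 regions 5.23, 0.304 and 16.7 kb. The 4 regions nearest to Sox6 had folds from 2.78 to 4.10, and 3 of them were in its introns, at 6.49, 7.42 and 9.38 kb upstream of an annotated start. The β-catenin summit nearest to any of these 8 regions was 2.63 kb away, at a Sox6 region.

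Habp2, Hnrnpa3, Meis1, Pmp22 and Ptn differed from Prdm16 and Sox6 in this respect. Each of their 3 regions had a β-catenin summit of the DMSO embryos within 1 kb. At Habp2, Pmp22 and Ptn some of these regions lay side by side, so they are not all separate cases. The 3 regions nearest to Hnrnpa3 lay in the gene desert on the telomeric side of the HoxD cluster, a stretch known for its limb enhancers, at 795, 818 and 930 kb from the start of Hoxd9. Their folds were 3.40 and 3.24, 2.44 and 3.18, and 3.58 and 3.43. DMSO H3K27ac peaks lay 0.394, 0.834 and 7.99 kb from them. The nearest β-catenin summits were 176, 286 and 466 bp from the H3K27ac summits, with β-catenin folds of 11.9, 7.57 and 6.50. Pmp22, a myelin protein gene, had its 3 regions 119 to 167 kb downstream, with H3K27ac folds from 2.98 to 3.77 and the nearest DMSO H3K27ac peak was 83.0 kb away.

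Gene lists put the named neighbours in context. Of 12 lists, limb bud patterning had the most members, 14 of 732 (1.91%) from 11 genes, against 1.45% of all 34034 merged regions. Cartilage formation had 7 (0.956% against 0.602%), WNT targets and feedback 3 (0.410% against 0.450%), WNT ligands and receptors 2 (0.273% against 0.432%) and skeletal muscle formation 1 (0.137% against 0.123%). The stress response list had 3 members (0.410% against 0.335%) and the limb mesenchyme list 4 (0.546% against 0.241%), which are the Meis1 and Msx1 regions counted under patterning as well. Blood had 2 (0.273% against 0.138%) and endothelium 1 (0.137% against 0.215%), the latter at the promoter of Pecam1, and ectoderm, neural tissue and hindlimb had 0 against 0.132%, 0.0411% and 0.0558%. These counts are small, and the lists were chosen with results of these data known.

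Among patterning genes, Meis1, which marks proximal limb mesenchyme, had 3 regions downstream of its start. They lay 253 kb (folds 4.54 and 5.03), 126 kb (5.03 and 3.92) and 29.2 kb (3.21 and 4.68) away, the latter pair within introns. β-catenin summits lay 274, 811 and 365 bp from their H3K27ac summits, with β-catenin folds of 9.87, 6.03 and 4.67.

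Msx1, a homeobox gene that responds to BMP signaling, had a region at chr5:37817288-37817538, 7.2 kb downstream of its start, with folds of 4.69 and 4.54. Its H3K27ac summit was 26 bp from a β-catenin summit of fold 6.93, the window printed above. Gli3, which encodes the main repressor of hedgehog targets, had an intronic region with folds of 3.34 and 4.26 and a β-catenin summit of fold 10.01 at 114 bp. Gli2, its relative, had an intronic region with folds of 4.47 and 3.14, and there the β-catenin summit was 24.1 kb away.

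Fgfr2, a receptor for fibroblast growth factors, had 2 regions, at 6.35 kb (4.36 and 4.26) and at 104 kb (3.68 and 2.99) downstream of its start, with DMSO H3K27ac peaks 0.217 and 0.427 kb away. Regions nearest to Lhx9, a LIM homeobox gene (4.02 and 3.65), and Irx3, an Iroquois homeobox gene (2.94 and 2.82), were intergenic. So were those nearest to Sall1 (3.60 and 3.27) and Sall3 (4.54 and 3.77), which encode zinc finger regulators. Each of these regions had a β-catenin summit within 1 kb. The nearest DMSO H3K27ac peak was 0.212 kb away at Sall1 and 0.312 kb at Irx3, but 29.1 kb at Sall3 and 76.3 kb at Lhx9. The region at the promoter of Id1, which encodes an inhibitor of basic helix-loop-helix factors, had folds of 2.29 and 2.272, lower than those of the other patterning members named here, and a DMSO H3K27ac peak lay 0.356 kb from it. In total 10 of the 14 patterning members had a β-catenin summit within 1 kb, against 217 of all 732 members (29.6%), 7 of 18 DMSO-only regions of the same list and 96 of 205 regions of the list called in all 4 libraries.

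Among cartilage members 0 of 7 had a β-catenin summit within 1 kb, against 29.6% of all members. For the same list it was 2 of 4 DMSO-only regions and 33 of 77 regions called in all 4 libraries. Beside the 4 Sox6 regions the cartilage members were nearest to Fgfr3, a receptor that restrains cartilage growth (3.67 and 4.25), Barx1, a homeobox gene of joint and cartilage precursors (3.56 and 3.84), and Wwp2, a ubiquitin ligase gene regulated by Sox9 (2.73 and 3.30). These counts of 10 of 14 and 0 of 7 were looked at after the values were seen and carry no test.

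Of the WNT genes, Tcf7l1 and Tcf7l2, which encode TCF factors themselves, were nearest to 3 regions. Tcf7l1 had a region 28.6 kb from its nearest start and 772 bp from that of the annotated gene Gm15402 (4.13 and 4.87), and a region in an intron (3.98 and 3.86), the latter with a β-catenin summit 363 bp away. Tcf7l2 had an intronic region with folds of 4.08 and 3.50 and a β-catenin summit of fold 12 at 404 bp. The nearest DMSO H3K27ac peaks were 10.6 and 0.39 kb from the Tcf7l1 regions and 0.274 kb from the Tcf7l2 region. The WNT receptor genes Fzd1 (3.88 and 3.37, in an exon of Cdk14) and Fzd2 (2.49 and 2.06) were nearest to a region each, with β-catenin summits 16.8 and 6.59 kb away. A DMSO H3K27ac peak lay 0.158 kb from the Fzd1 region and 3.39 kb from the Fzd2 region. Lbx1, which marks migrating muscle precursors, had a region 4.57 kb downstream of its start (2.87 and 2.49).

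**Figure D4:**
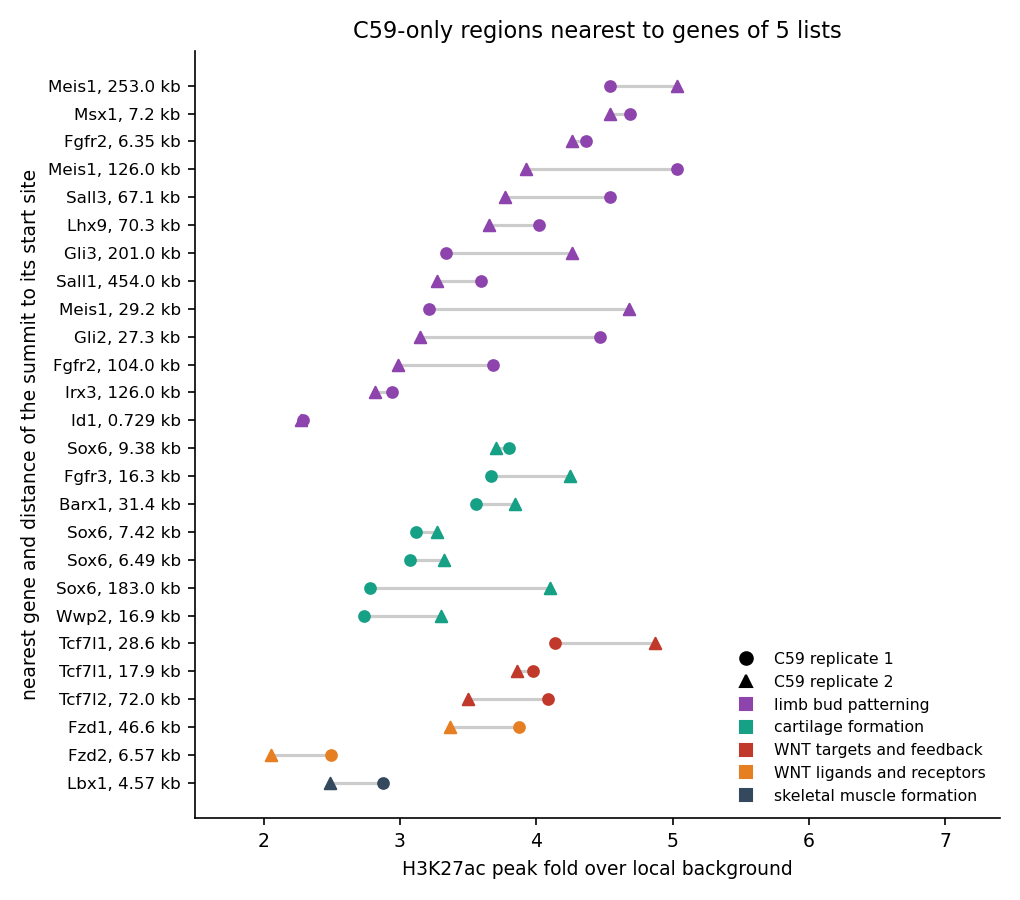
H3K27ac peak fold (horizontal axis, fold over local background) of 26 C59-only regions whose nearest gene is in 5 lists, with C59 replicate 1 as circles and C59 replicate 2 as triangles. Rows give the nearest gene and the distance of the summit to its start site in kb; the folds run from 2.06 at Fzd2 to 5.03 at Meis1, and both replicates lie close together at Msx1 and Id1 and apart at Gli2 and at the Meis1 region 29.2 kb from the start.

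β-catenin is independent of the H3K27ac rule, since it comes from other libraries and another antibody. In the DMSO embryos the replicates listed 20148 and 25765 β-catenin summits, and after C59 283 and 315. A DMSO consensus summit of β-catenin lay inside 42 of the 732 members (5.74%, 4.27 to 7.67), while a β-catenin peak overlapped 161 members (22.0%) and a summit lay within 1 kb of 217 (29.6%, 26.5 to 33.1), within 10 kb of 312 (42.6%) and within 50 kb of 506 (69.1%). The share with a summit inside was 6.56% in the list of DMSO β-catenin replicate 1 and 8.20% in that of replicate 2. Without C59 replicate 1 the C59-only set had a summit inside in 3.04% and without C59 replicate 2 in 3.20%.

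These summits were off centre. For the 217 members with one within 1 kb the median distance between β-catenin and H3K27ac summits was 301 bp, and in 16 of them it was at most 100 bp. Among DMSO-only regions the median was 278 bp and among those called in all 4 libraries 265 bp.

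For distal regions the share with a β-catenin summit within 1 kb was 33.3% in the C59-only set, 32.1% in the DMSO-only set and 42.3% in regions called in all 4 libraries. C59 only and DMSO only differed by 1.20 points (-3.73 to 6.16), so a difference of this size was not detectable with these numbers. Against regions called in all 4 libraries the difference was -8.97 points (-12.8 to -4.94). Over all places it had the other sign, with 29.6% against 25.1% (4.50 points, 1.24 to 7.96), where promoters made up 15.6% of the C59-only set and 68.9% of the regions called in all 4 libraries. With the summit inside the region the shares were 6.47%, 9.35% and 27.6%, but regions called in all 4 libraries were also wider. Over all places, the difference of the inside shares between C59 only and DMSO only was -2.03 points (-4.35 to 0.402), and its direction depended on the libraries. It was 2.72 points (1.40 to 4.26) without DMSO replicate 1 and 4.61 points (3.19 to 6.15) without DMSO replicate 2, but -4.77 points (-6.11 to -3.48) without C59 replicate 1 and -4.41 points (-5.95 to -3.03) without C59 replicate 2.

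The strongest β-catenin summits inside members were found in an intron of Dysf, which encodes a membrane repair protein (β-catenin fold 23.7), and in an intron of Hspb8, a small heat shock protein gene (18.5). They were followed by an intron of Cux1, a homeobox gene (15.3), and by intergenic regions nearest to Rpusd4 (14.3) and Ube2v1 (14.1). The H3K27ac folds of these members were 3.06 and 3.34 at Dysf, 3.38 and 3.56 at Hspb8, 4.79 and 3.52 at Cux1, 3.22 and 2.45 at Rpusd4 and 4.05 and 3.39 at Ube2v1, so they were average for the set. In the C59 embryos a β-catenin consensus peak overlapped 6 members (0.820%), nearest to Tnp1, Elac2, Setd4, Clic5, Habp2 and Thap1. All 6 were overlapped by a DMSO β-catenin peak as well. The share was 0.194% in DMSO-only regions and 0.504% in regions called in all 4 libraries. A C59 consensus summit lay within 1 kb of 1.64% of members, against 0.291% and 0.607% in these sets. A peak of C59 replicate 1 alone overlapped the members at Dysf and Cux1, and a peak of C59 replicate 2 alone that at Rpusd4.

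The TCF/LEF core, the sequence through which β-catenin reaches DNA, stood at about the level of the surroundings at the H3K27ac summits of these regions. In windows of 200 bp around the summit it was present in 52 of 732 members (7.104%, 5.46 to 9.197). In distal members the share was 8.09% against 7.93% in windows 2 kb to either side, 7.24% in all distal regions and 10.4% in distal DMSO-only regions. C59 only and DMSO only differed by -2.28 points (-5.29 to 0.824). Of the 42 members with a β-catenin summit inside, 8 held a core (19.05%, 9.98 to 33.3), against 44 of 690 others (6.38%, 4.78 to 8.45). These 8 were nearest to Ube2v1, Ptprg, Flrt2, Thap1, Fam110b, Gm5148, Auh and Cacna2d3, and 3 of them are printed above.

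A clearer difference appeared when the window was centred on the β-catenin summit instead. Around the nearest β-catenin summit of the 217 members that had one within 1 kb, a TCF/LEF core was present in 38 (17.5%, 13.0 to 23.1). Around those of the 283 DMSO-only regions it was present in 96 (33.9%, 28.7 to 39.6), and the difference was -16.4 points (-23.7 to -8.72). Regions called in all 4 libraries stood at 17.8% (16.7 to 18.96), and the C59-only share differed from theirs by -0.290 points (-4.92 to 5.43). In distal regions alone the shares were 18.0% and 35.5%, and without regions that had a neighbour of the other treatment within 1 kb they were 18.5% and 38.0%.

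The β-catenin summits were of like strength beside C59-only and DMSO-only regions, with median folds of 8.22 and 7.83. Beside regions called in all 4 libraries they were weaker, with a median fold of 6.25. Summits of fold 8 or more held a core in 18.4% beside C59-only regions, in 47.0% beside DMSO-only regions and in 27.9% beside regions called in all 4 libraries. Below fold 8 the shares were 16.5%, 22.5% and 13.2%, and there C59 only and DMSO only differed by -6.01 points (-15.4 to 4.23). From regions called in all 4 libraries the C59-only share differed by -9.445 points (-15.96 to -1.02) at fold 8 or more. Below fold 8 it differed from theirs by 3.30 points (-2.76 to 11.7). Without a split by fold, C59 only minus DMSO only was -14.7 to -16.1 points when any 1 H3K27ac library was left out. Every such interval lay below 0. The measure was chosen after the data had been seen, and its intervals treat regions as independent and cover counting error only.

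**Figure D5:**
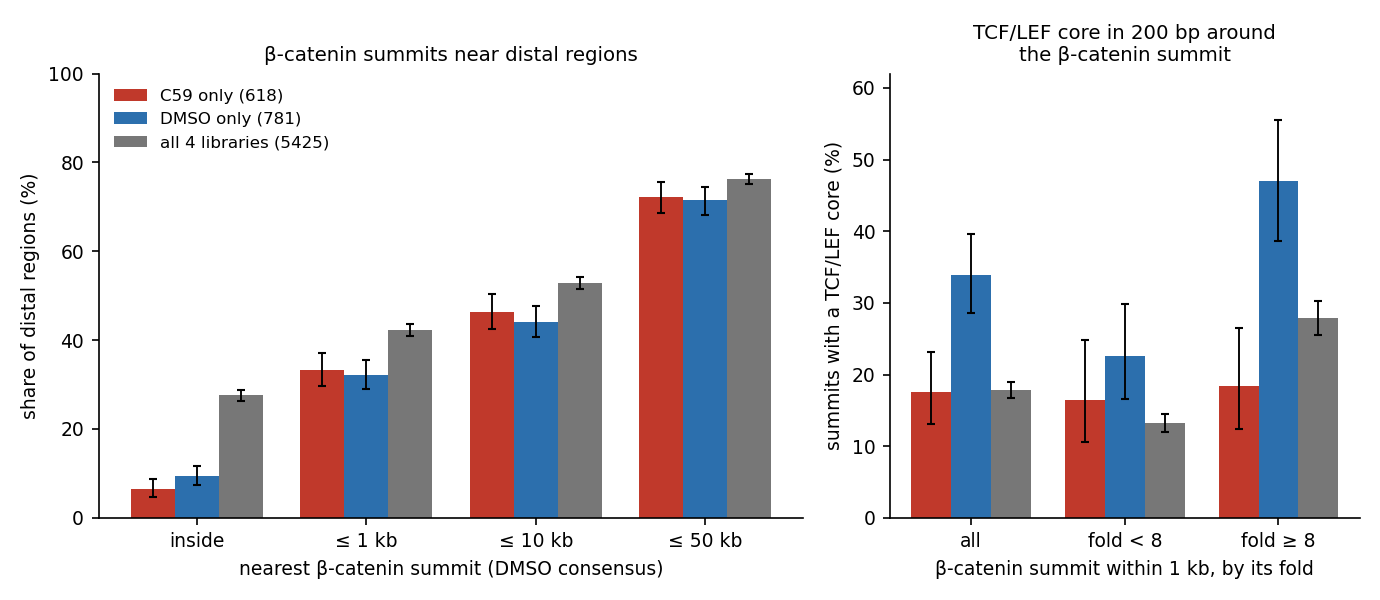
Left, share of distal H3K27ac regions (percent) with a β-catenin summit of the DMSO consensus list inside or within 1, 10 or 50 kb. Right, share of the nearest β-catenin summits within 1 kb (percent) with a TCF/LEF core in 200 bp around them, for all and split at a β-catenin fold of 8; bars are C59-only (red), DMSO-only (blue) and all-4-library regions (grey) with 95% Wilson intervals. Distances are alike in the C59-only and DMSO-only sets, and the core is present in 17.5% against 33.9%.

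Other cores showed few differences from DMSO-only regions. Of 11 motifs searched on both strands, the GATA core AGATAA was present in 70 of 732 members (9.56%, 7.64 to 11.9), against 6.51% of DMSO-only regions (difference 3.06 points, 0.508 to 5.77), 3.57% of regions called in all 4 libraries and 5.35% of all regions. In distal regions alone C59 only and DMSO only differed by 2.54 points (-0.374 to 5.59). For each of the other 9 cores, among them those of AP-1, SOX, TWIST and ETS factors, the interval of the difference from DMSO-only regions over all places included 0. At promoters alone the HOX13 core differed from DMSO-only regions by 3.58 points (0.3335 to 9.09). That rests on few regions, 5 of 114 members against 2 of 249 DMSO-only regions. Against regions called in all 4 libraries, the intervals of all 11 cores over all places excluded 0. In distal regions only that of the GATA core did (3.33 points, 1.13 to 5.99). In all, 52 differences of shares were computed against each of the compared sets, and no interval was widened for their number. The median GC content of the windows was 51.0% against 62.5% in regions called in all 4 libraries, where promoters dominate, and was 50% against 53% in distal regions.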

How the data were processed

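Chromatin of forelimb buds was immunoprecipitated for H3K27ac and β-catenin, with 2 libraries for each antibody and treatment, and input libraries were not used here. The authors mapped trimmed reads to mm10 with Bowtie2 2.4.5, removed alignments of low mapping quality and called peaks with MACS2 2.2.7.1 in each library without input. The submitters' processing notes also name Picard 2.27.4, cutadapt 4.1 and deepTools 3.5.5. In the consensus lists the authors removed duplicates, sampled replicates to equal size, called them together and kept summits shared by both replicates. Deposited values are the fold of each summit over the expected coverage (a ratio of the authors' caller), and 2 further values as -log10, the p-value and the q-value. No read totals were used here, so coverage was solved from the deposited fold and p (tolerance 0.01 on -log10 p), and fragment bases from the lowest expected coverage and a genome size of 1870000000.

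Peaks were merged at an overlap of 1 bp in Python 3.11.15 with pandas 2.3.3, numpy 2.4.6, scipy 1.17.1 and pysam 0.24.0. Start sites, exons and genes came from GENCODE M21 on GRCm38, and a promoter was a highest-fold summit less than 1 kb from any start site. Sequence was read from the RefSeq copy of GRCm38 in windows of 200 bp, and TCF/LEF cores were searched on both strands. Shares carry 95% Wilson intervals and differences 95% Newcombe intervals, and both treat regions as independent and cover counting error only. No p-value was computed. Merging, overlap, nearest start site, coverage solution and intervals were tested on simulated data.

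The regions, gene lists and motifs were chosen with earlier results of these data known. Genes named are those nearest to the 10 strongest regions and the 5 strongest promoters by the lower C59 fold, those nearest to 3 or more regions, those of the WNT, cartilage, muscle and patterning lists, and those at the 5 strongest β-catenin summits inside regions. Others were named after their values were seen. Some regions that this rule selects are not reported here, though they stay in all counts except that of the plot by gene. Groups and replicate numbers come from the sample titles. Alternatives were other merging, q limits, distances, lists and windows, and leaving out each H3K27ac library.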

Additional observations from a re-analysis of the deposited data

Results flagged for a closer look

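On sequences outside chromosomes 1 to 19 and X, which the rule left out, 2 merged H3K27ac regions were called in both C59 replicates and in neither DMSO replicate, and 0 were called only in DMSO. Of the 2 regions, 1 was on the mitochondrial sequence and 0 were on the Y chromosome. These sequences held 70 merged regions in all, of which 30 were called in all 4 libraries. Among the 34034 regions of the rule 2.15% were C59-only and 3.03% DMSO-only. Counts of 2 and 0 among 70 are near those shares.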

How the results depend on the processing

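No paired analysis was possible because the results are counts and shares of regions that come from no test. Of 55 values under alternatives, 30 stayed within 1.5 times a count or within the 95% interval of a share, and 25 moved. The number of regions was 732, 2054 when C59 consensus peaks were set against DMSO consensus peaks, and 1258 to 3719 when 1 library was left out (1258 without DMSO replicate 1, 1641 without DMSO replicate 2, 2300 without C59 replicate 1, 3719 without C59 replicate 2). The share above the DMSO detection limit was 89.9%, and 8.20% at 2 times the lowest coverage and 78.7% at the lowest listed p. The promoter share was 15.6%, and 12.8% with protein-coding start sites, 22.1% with a limit of 2500 bp, 5.601% where the region had to overlap a start site, 11.9% over 1 kb from any DMSO peak and 13.4% to 20.5% without 1 library. The β-catenin share was 5.74%, and 29.6%, 42.6% and 69.1% within 1, 10 and 50 kb, 8.20% in the list of DMSO β-catenin replicate 2 and 3.04% to 8.17% without 1 library. The TCF/LEF share was 7.104%, and 15.9% in 400 bp, 14.3% in the whole region, 17.5% around β-catenin summits and 6.09% to 7.65% under the rest. Around β-catenin summits it was 24.9% in 400 bp and 12.9% in 100 bp, and the difference from DMSO-only regions was then -15.0 and -11.8 points. It was 15.4% to 17.0% without 1 library. The median lower fold stayed the same, as did the overlap with the consensus lists, which share their libraries with the rule. Wider windows and longer distances cover more bases, and the cause of the other changes was not tested. A region not listed in DMSO can hold signal under the limit, and 17 or 16 fragments at the median member leave little room to rank members. The TCF/LEF windows around β-catenin summits and the leave-outs for them were chosen after seeing the data.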
